A study of Mus musculus with 23 samples.

Results

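Neutrophil lineage cells of the bone marrow (BM) were taken from 6 single-cell RNA-seq libraries, 2 each from mice with wild-type (WT) Stat5b, with Stat5b Y665H and with Stat5b Y665F. A cell, meaning a droplet barcode, was kept when it had at least 200 detected genes and at most 10% of its unique molecular identifiers (UMIs, which count RNA molecules) in mitochondrial genes. It entered the neutrophil gate when S100a8, S100a9, Camp, Ngp, Ltf and Lcn2 together made up at least 5% of its UMIs. The gate held 356 of 75185 kept BM cells, among 136301 kept cells in the 16 expression libraries of the series. The cells were thus chosen by the measured levels of these 6 genes, whose values are given as a description and were not tested.

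Neutrophils develop in the marrow from granulocyte-monocyte progenitors, and their granules are made in order. Primary (azurophil) granule proteins such as myeloperoxidase and elastase are made first, secondary (specific) granule proteins such as lactoferrin, cathelicidin and lipocalin 2 next, and gelatinase granule proteins and chemokine receptors last. Granulocyte colony-stimulating factor and its relatives drive this output through receptors that signal partly by way of STAT5A and STAT5B, transcription factors that are phosphorylated by JAK kinases, pair up and bind DNA. S100A8 and S100A9 form calprotectin, the main cytosolic protein complex of neutrophils.

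The labels give all mice as C57BL/6 and 2 months old, the methods naming C57BL/6N, and WT, Y665H and Y665F marrow was taken without any treatment named in the labels. Both mutations are germline changes of 1 tyrosine in the SH2 domain of STAT5B, so that every cell type carries them, and the zygosity of the BM donors was not given in the labels. The labels number 2 replicates in each genotype and do not say that these were separate animals. The sex-linked transcripts given below show that the 2 libraries of each genotype came from different animals. Tests measure the spread between libraries, which holds differences between animals and may be in part technical. The mutations change the protein and not the amount of transcript by design, so Stat5b counts are no check of the genotype labels.

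The edited site is shown because the groups differ by design there. It lies in exon 16 of the 19 exons of Stat5b, on the minus strand, at chr11:100787282-100787311 of GRCm38, with the changed codon at bases 100787291 to 100787293. The capitals mark the codon in the reference and in the single-stranded donor used to make Y665F, and the PAM in the guide, which was the same for both alleles and lies on the plus strand at chr11:100787287-100787309. Y665H was made with the same guide by adenine base editing. The methods also name a silent C-to-G change for the Y665F donor, while the donor sequence listed with them, of 133 bases, differed from the reference transcript at 2 bases, both in the codon (A20T and C21T, counted from the first base shown), so whether the Y665F mice carry the silent change was not examined here. The sequences, 5′ to 3′, are:
Reference: cgcctgggggacctgaatTACctcatatat
Y665F donor: cgcctgggggacctgaatTTTctcatatat
Guide with PAM: tgaggtaattcaggtcccccAGG

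The libraries held between 4237 and 18711 kept cells, with a median of 1626 to 2872 UMIs per kept cell. The lowest barcode had 500 UMIs in every library except Y665F replicate 2, where it had 1179. Gated cells were shallower outside Y665F, with a median of 781.5 and 1639 UMIs in WT, 858.5 and 811 in Y665H, and 2342 and 1879.5 in Y665F. No gated barcode was gated in more than 1 library, and 21 gated barcodes also occurred among the kept barcodes of another library. Xist, transcribed from the inactive X chromosome, had 11350, 9745 and 49129 UMIs in replicate 1 of WT, Y665H and Y665F and at most 29 in any replicate 2, while the Y-linked Ddx3y had at most 1 UMI in any replicate 1 and 658, 591 and 2332 in replicate 2. Each genotype was thus represented by 1 female and 1 male library, and the spread between replicates holds any difference of sex. In the kept cells, erythroid transcripts were abundant outside Y665F, Car1, the carbonic anhydrase of red-cell precursors, lying between 3581 and 5289 CPM (UMIs of a gene scaled to a fixed library total) in WT and Y665H and at 608 and 372 CPM in Y665F. Neutrophils are usually a large share of unfractionated marrow, and the sources used here do not state whether the cells were sorted or depleted. The shares below are therefore shares of the kept cells and need not be those of whole marrow.

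The gate was small in every library and larger in Y665F. It held 2 of 4237 kept cells (0.0472%) in WT replicate 1 and 7 of 11321 (0.0618%) in WT replicate 2. In Y665H it held 14 of 10432 (0.134%) and 8 of 12135 (0.0659%), and in Y665F 199 of 18349 (1.08%) and 126 of 18711 (0.673%). Exact 95% binomial (Clopper-Pearson) intervals, which cover counting error only, ran from 0.00572% to 0.170% and from 0.0249% to 0.127% in WT. They ran from 0.0734% to 0.225% and from 0.0285% to 0.130% in Y665H, and from 0.940% to 1.25% and from 0.561% to 0.801% in Y665F. Both Y665F libraries thus lay above the other 4, while the WT and Y665H libraries could not be told apart at this depth.

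The mean share was 0.0545% ± 0.0103 (SD, n = 2) in WT, 0.100% ± 0.0483 (SD, n = 2) in Y665H and 0.879% ± 0.291 (SD, n = 2) in Y665F, a level 16.1-fold that of WT and 8.78-fold that of Y665H. The study sets the mutations on either side of WT, so the order Y665H, WT, Y665F was put to the Jonckheere-Terpstra trend statistic. Its p was taken exactly and two-sided from all 90 arrangements of the libraries, which allow a p of 0.0222 at the least. Adjusted over 3 shares, that p alone would stay above 0.05, so that passing also needed a low p in another share. The order did not pass (exact permutation p = 0.578, Benjamini-Hochberg adjusted p = 0.844 over 3 shares), the Y665H mean lying above and not below that of WT. Y665F against the other 4 libraries, a comparison added after the data were seen, differed by 0.802 percentage points (exact two-sided permutation p = 0.0667, the smallest that 15 arrangements allow).

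The size of the Y665F excess depended on how strict the gate was. At a gate of 30% of UMIs it held 0 and 3 cells in WT, 8 and 4 in Y665H, and 86 and 9 in Y665F, so that Y665F replicate 2 (0.0481%) fell below Y665H replicate 1 (0.0767%) and the excess was carried by Y665F replicate 1. With a common floor of 1179 UMIs per cell the gate held 0, 5, 4, 3, 172 and 126 cells in the same order of libraries. With suspected doublets left out it held 2, 7, 14, 8, 163 and 123 cells.

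**Figure D1:**
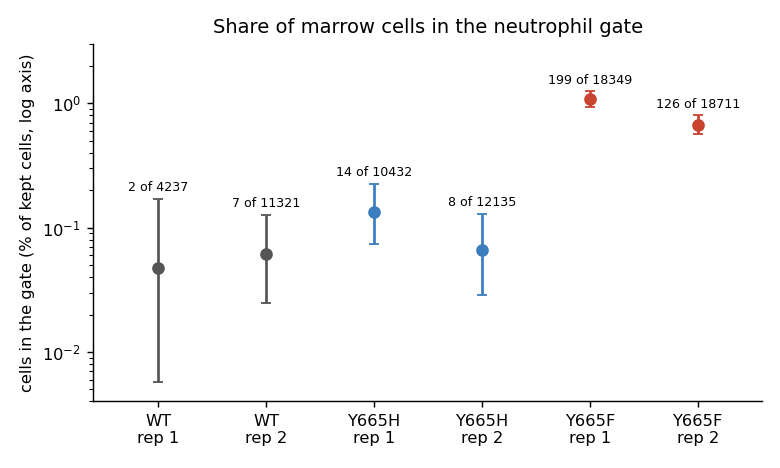
Share of kept BM cells in the neutrophil gate, in percent on a log axis, for each of the 6 libraries, with points for the share and bars for the exact 95% binomial interval. The numbers give gated and kept cells, and both Y665F libraries (1.08% and 0.673%) lie above the other 4, whose intervals overlap.

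RNA of the gate genes was also found outside the gate. Other kept cells with at least 1 UMI of a gate gene made up 4.70% and 3.48% in WT, 9.60% and 2.14% in Y665H, and 41.8% and 37.0% in Y665F. Their summed level in those cells was 19.0 and 39.6 CPM in WT, 34.2 and 25.1 in Y665H, and 241 and 490 in Y665F. Cells with at least 2 UMIs of Cd79a and Cd79b, subunits of the B-cell receptor, should lack these genes, and of them the gate held 0 of 150, 0 of 542, 0 of 330 and 0 of 272 in WT and Y665H, 4 of 727 (0.550%) in Y665F replicate 1 and 1 of 232 (0.431%) in Y665F replicate 2. Their median depth was 1815 and 2720.5 UMIs in the Y665F libraries. The gate genes stood in these B lineage cells, the gated ones included, at 12.7 and 253 CPM in WT, 26.1 and 9.73 in Y665H, and 1873 and 1609 in Y665F. The part of free RNA or doublets in the Y665F share was not tested beyond these values.

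The gated cells carried other neutrophil genes that the rule did not use. Of 8 markers outside the rule (Ly6g, Fcnb, Cebpe, Chil3, Cd177, Itgb2l, Mmp8 and Retnlg), at least 1 was seen in 2 of 2 and 7 of 7 WT cells, 13 of 14 and 7 of 8 Y665H cells, and 195 of 199 and 124 of 126 Y665F cells. The same held for 1.13% and 0.972% of other kept cells in WT, 1.39% and 0.701% in Y665H, and 3.85% and 4.21% in Y665F. At least 3 were seen in 0 of 2, 3 of 7, 6 of 14 and 1 of 8 cells outside Y665F, and in 153 of 199 (76.9%) and 61 of 126 (48.4%) cells of Y665F, against at most 0.113% of other cells in any library. Ly6g, the surface antigen by which mouse neutrophils are usually sorted, had a UMI in 48.2% and 30.2% of gated Y665F cells and in 0.0661% and 0.151% of the other cells of those libraries. The label of the gate was thus borne out by genes it did not use, on few and shallow cells outside Y665F.

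RNA of other lineages was also found in gated cells. In Y665F replicates 1 and 2, at least 1 UMI of the monocyte list was seen in 68.8% and 61.9% of gated cells (32.9% and 46.0% of other cells). The erythroid list was seen in 54.3% and 78.6% (68.0% and 84.8% of other cells), the megakaryocyte list in 28.1% and 46.8% (34.0% and 58.0%), the basophil and mast cell list in 35.7% and 37.3% (27.5% and 35.0%), the T and NK cell list in 24.6% and 34.9% (32.3% and 36.7%) and the B lineage list in 15.6% and 18.3% (25.2% and 22.2%). The eosinophil list was seen in 11.1% and 6.35% (2.07% and 4.32% of other cells), at 1120 and 408 CPM in gated and 123 and 46.0 CPM in other cells. Of these lists, those of monocytes, eosinophils, and basophils and mast cells were thus seen in a larger share of gated than of other cells in both Y665F libraries, and the others in a smaller share.

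The summed level of the monocyte list in gated cells, whose 8 genes include Ly6c2 and Mpeg1, was 1280 and 1404 CPM in WT, 366 and 469 in Y665H, and 643 and 438 in Y665F. That of the erythroid list was 2559 and 638 CPM in WT, 1361 and 3417 in Y665H, and 402 and 859 in Y665F, and had at least 1 UMI in 100% and 28.6% of gated WT cells and 71.4% and 100% of gated Y665H cells. The part of these transcripts in the results was not tested. Among defining markers, Cd3e and Cd3g (T cells), Siglech (plasmacytoid dendritic cells), Cx3cr1 (monocytes) and Epx (eosinophil peroxidase) had 0 UMIs in the gated cells of all 6 libraries, while other members of their lists were present. Csf1r, the receptor of monocytes and macrophages, had 0 UMIs outside Y665F and 8 and 1 in the Y665F libraries. Barcodes with a UMI of Csf1r, Ccr2, F13a1 or Ms4a6c numbered 1 in each of the 4 other libraries and 25 and 18 in Y665F. Prg2, the major basic protein of eosinophils, had 0 UMIs in WT and Y665H and 666 and 114 in Y665F, of which 551 and 111 lay in 1 cell each.

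Stem and progenitor transcripts (Kit, Cd34, Hlf, Mecom, Procr, Ly6a, Meis1) were seen in more of the gated cells, and in more of the other cells, of Y665F than of the other libraries. At least 1 UMI of this list was found in 0 of 2, 2 of 7, 1 of 14 and 1 of 8 gated cells outside Y665F, and in 85 of 199 (42.7%) and 81 of 126 (64.3%) in Y665F. Among other kept cells the share was 54.5%, 38.4%, 43.2% and 32.8% outside Y665F, and 68.8% and 78.1% in Y665F, above that of gated cells in every library. Without the gated cells that held such a UMI, the gate kept 2, 5, 13, 7, 114 and 45 cells, and the mean share was 0.0457% in WT, 0.0912% in Y665H and 0.431% in Y665F. The Y665F excess was thus smaller but present without them. Gated cells were deeper in Y665F (median 2342 and 1879.5 UMIs) than in the other libraries (781.5 to 1639). The part of depth in these shares was not tested.

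The balance of the 6 gate genes differed between genotypes, most of all for Ngp, a granule protein of the cystatin family. Ngp made up 33.9% and 36.1% of the gate-gene UMIs of gated cells in WT, 40.4% and 38.4% in Y665H, and 12.7% and 4.90% in Y665F. The Y665F libraries were below the other 4 without overlap, and the mean was 35.0% in WT, 39.4% in Y665H and 8.81% in Y665F. S100a8 and S100a9 together moved the other way, at 45.4% and 36.6% in WT, 38.9% and 42.1% in Y665H, and 64.2% and 71.8% in Y665F.

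Camp, which encodes the antimicrobial peptide cathelicidin, kept a similar place, between 16.2% and 24.2% of the gate-gene UMIs in all 6 libraries. Ltf (lactoferrin, which binds iron) made up between 0.739% and 1.72%, and Lcn2 (lipocalin 2, which binds the iron carriers of bacteria) between 0.987% and 2.62%, with Y665F inside the range of the other libraries for both. The ratio of Ngp to Camp UMIs was 1.87 and 1.49 in WT, 2.34 and 2.37 in Y665H, and 0.662 and 0.238 in Y665F. Among cells outside the gate the same ratio was 1.73 and 1.72, 1.86 and 2.01, and 1.06 and 0.443, also lowest in the Y665F libraries. These values rest on 304 and 2676 gate-gene UMIs in WT, 6662 and 2978 in Y665H, and 174998 and 46495 in Y665F. In WT replicate 1, 67.8% of them came from 1 cell.

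**Figure D2:**
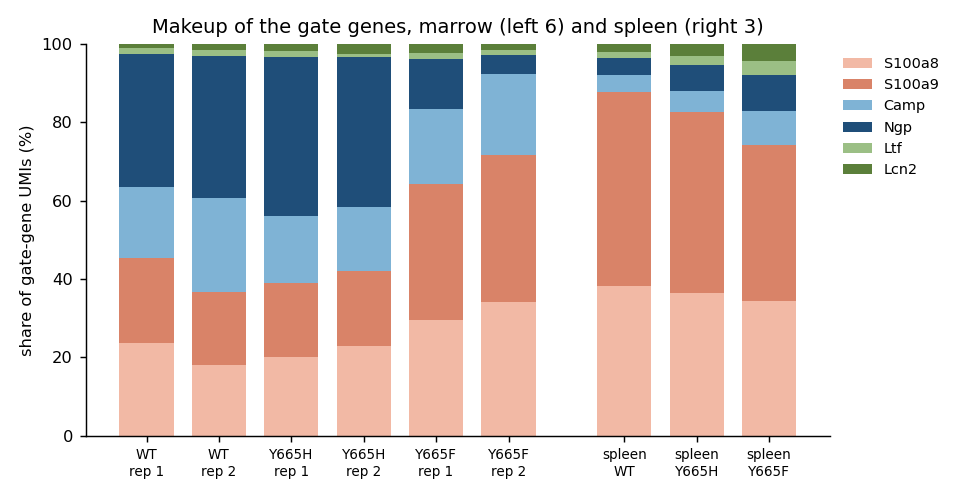
Makeup of the gate-gene UMIs of gated cells, in percent, for the 6 BM libraries and for the 3 spleen libraries (1 per genotype) gated by the same rule. The Ngp band is between 33.9% and 40.4% in WT and Y665H marrow, at 12.7% and 4.90% in Y665F marrow, and at 4.36%, 6.58% and 9.15% in WT, Y665H and Y665F spleen.

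The low Ngp share was seen cell by cell. The median over gated cells was 29.3% and 35.8% in WT, 29.8% and 40.6% in Y665H, and 11.3% and 4.72% in Y665F. Single WT cells lay between 15.1% and 44.8% and Y665H cells between 0% and 51.4%. The highest cell of Y665F replicate 1 stood at 24.96% and that of Y665F replicate 2 at 14.1%. Cells with no Ngp UMI numbered 3 in Y665H replicate 1, 13 in Y665F replicate 1 and 5 in Y665F replicate 2. Within 500 to 2000 UMIs per cell, which brings the depths closer, the mean share was 35.2% in WT, 34.9% in Y665H and 6.30% in Y665F. With the cells that held a monocyte-gene UMI left out, WT replicate 1 was left with 1 cell at 16.3%, and the difference between Y665F and WT shrank from -26.2 to -17.6 percentage points.

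**Figure D3:**
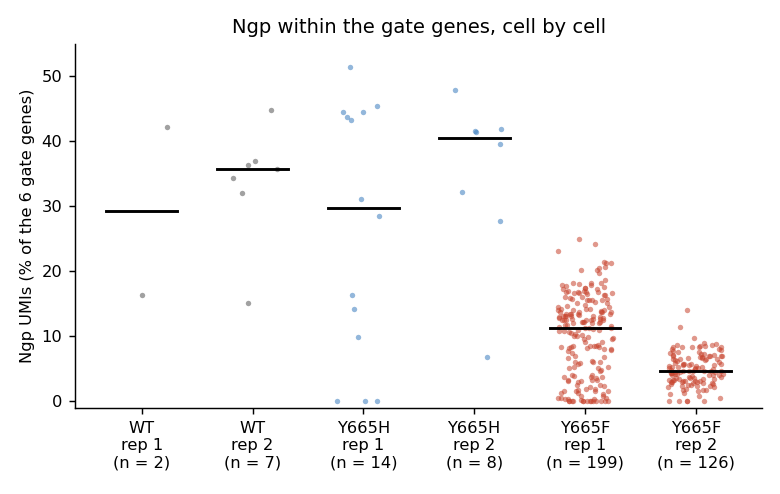
Ngp UMIs as a percent of the UMIs of the 6 gate genes, 1 point per gated cell, with the black line at the median of each library. No Y665F cell lies above 24.96%, while the library medians of WT and Y665H lie between 29.3% and 40.6%.

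In the spleen, with 1 library per genotype and so no replicate check, the ratio of Ngp to Camp UMIs in gated cells was 1.004 in WT, 1.22 in Y665H and 1.04 in Y665F. Among spleen cells with at least 10 Camp UMIs the median Ngp share was 9.86% in WT (6 cells), 11.3% in Y665H (72 cells) and 9.47% in Y665F (195 cells). Within the spleen, the Y665F ratio was therefore not the lowest. Of the gate-gene UMIs, Ngp made up 4.36% in WT, 6.58% in Y665H and 9.15% in Y665F spleen. A low Ngp share was thus not particular to Y665F there. Ngp lies at chr9:110419747-110423012 on the plus strand of GRCm38, between Camp (chr9:109847379-109849617, minus strand) and Ltf (chr9:111019271-111042767, plus strand), whose Y665F shares lay within the range of the other libraries. The GAS motif of STAT dimers (TTC and GAA with 3 bases of any kind between), which reads alike on both strands, was found in 0 of the 6 RefSeq (GRCm38.p6) promoters of the gate genes, taken from 250 bases before to 50 after the start, and in 8.30% of 32851 promoters of that length. It was found in 2 of 11 promoters of secondary granule genes outside the gate (18.2%), 3 of 16 of late neutrophil genes (18.75%) and 2 of 15 of the STAT5 feedback, survival and cyclin targets (13.3%). These matches are a description and were not tested.

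Maturation stage was read from genes outside the rule. Primary granule genes (Mpo, Elane, Prtn3, Ctsg, Prss57, Ms4a3, Cd63, Cst7) reached 1% of UMIs in 0 of 31 gated cells outside Y665F, in 7 of 199 (3.52%) in Y665F replicate 1 and in 2 of 126 (1.59%) in Y665F replicate 2. For the separate libraries outside Y665F the counts were 0 of 2, 0 of 7, 0 of 14 and 0 of 8, so few cells that shares as high as those of Y665F were not detectable there. The order of the genotypes did not pass the exact two-sided permutation test (p = 0.133, the smallest these ties allow, adjusted p = 0.4).

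Late neutrophil genes (18 genes, among them Mmp8 and Mmp9, the collagenase and gelatinase of neutrophil granules, Retnlg, Cxcr2 and Csf3r) reached 1% of UMIs in 0 of 2 and 2 of 7 WT cells, 6 of 14 and 1 of 8 Y665H cells, 93 of 199 (46.7%) Y665F replicate 1 cells and 31 of 126 (24.6%) Y665F replicate 2 cells. The means were 14.3% in WT, 27.7% in Y665H and 35.7% in Y665F, with overlapping libraries (exact two-sided permutation p = 0.844, adjusted p = 0.844). Thinned to 1000 UMIs per cell, with shallower cells left out, the counts were 1 of 5 in WT replicate 2, 1 of 5 and 0 of 3 in Y665H, and 88 of 181 and 34 of 126 in Y665F, WT replicate 1 having no cell left. The stage of the gated cells was therefore not shown to differ between genotypes.

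The Y665F libraries had enough cells to describe the gate in 4 bands from 6% of UMIs upward. From cells with 6% to 10% of their UMIs in gate genes to those with 30% or more, the summed level of 13 secondary granule genes outside the rule rose from 7819 to 29289 CPM in replicate 1 and from 6131 to 18331 CPM in replicate 2. Late neutrophil genes did not follow this course, peaking at 20559 CPM between 20% and 30% in replicate 1 and falling to 7370 CPM above it, and going from 7792 to 2606 CPM in replicate 2. Genes of the G2/M phase, which mark dividing cells, were highest in the top band of both replicates (3458 and 4127 CPM). S phase genes went the other way, from 1957.5 to 570 CPM in replicate 1, lowest in the top band. In replicate 2 they went from 1960 to 1607 CPM, with 1182 CPM between 10% and 20%. Of the 4 bands, the stem and progenitor genes were lowest in the top one (175 and 217 CPM, from 346 and 516 CPM at 6% to 10%). The CPM totals include the gate genes, so a higher gate share lowers the CPM of every other gene, which was not corrected for. The top band of replicate 2 held 9 cells, and the band below it stood at 14937 CPM for secondary granule genes, 3755 CPM for G2/M genes and 449 CPM for stem and progenitor genes. The cells of 5% to 6%, 4 and 10 in number, are not part of this course, with secondary granule genes at 9289 and 3909 CPM and stem and progenitor genes at 96.8 CPM in replicate 1, below its top band, and 537 CPM in replicate 2.

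**Figure D4:**
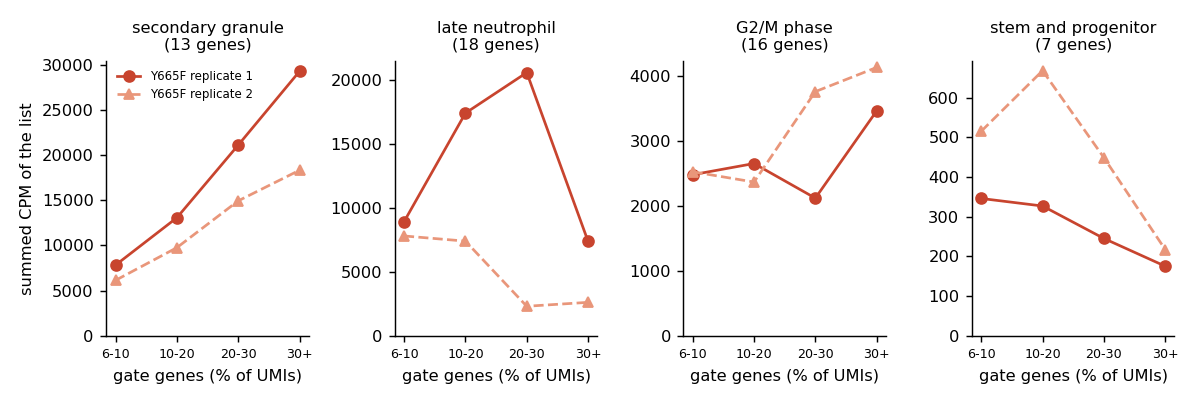
Summed CPM of 4 gene lists in gated Y665F cells with at least 6% of UMIs in gate genes, binned by that percent, 1 line per replicate. The CPM totals include the gate genes. Secondary granule genes rise across the 4 bins in both replicates (to 29289 and 18331 CPM), late neutrophil genes do not, and stem and progenitor genes are lowest of the 4 bins in the top one (175 and 217 CPM), which holds 9 cells in replicate 2.

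Cells over and under 1% of late neutrophil UMIs also differed in Ngp. The median Ngp share was 5.31% in late cells and 13.8% in the others in Y665F replicate 1, and 3.0% and 5.07% in Y665F replicate 2. In Y665H replicate 1 it was 15.3% in 6 late cells and 43.9% in the 8 others, above both Y665F replicates in each class. The late cells held a smaller share of gate genes, with a median of 21.9% of UMIs against 36.4% in Y665F replicate 1 and 9.75% against 17.3% in Y665F replicate 2.

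Around the threshold, 6 and 15 Y665F cells lay between 4% and 5% of UMIs and 4 and 10 between 5% and 6%. The nearest cells stood at 4.99% and 5.14% in replicate 1 and at 4.94% and 5.26% in replicate 2.

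Gene by gene, gated cells were compared after their counts were summed per library, with the edgeR quasi-likelihood test and a call at a Benjamini-Hochberg adjusted p under 0.05 with an absolute log2 fold change over 1. Of 274 genes outside the rule that passed the expression filter, 0 were called in Y665F against WT, in Y665H against WT and in Y665F against Y665H (0% of the genes tested in each). At an unadjusted p under 0.05 there were 9, 12 and 25 genes, and DESeq2 called 0, 0 and 1. With the replicate number, which went with sex, as a term in the edgeR model, 2, 0 and 4 were called. The sums rested on 1563 and 15668 UMIs in WT, 19108 and 14924 in Y665H, and 635009 and 308511 in Y665F. Of 13 secondary granule genes 7 could be tested, and their median log2 fold change was 1.04 in Y665F against WT, 1.1502 in Y665H against WT and -0.28 in Y665F against Y665H, with 0 called in each, beside 0.05 over all genes tested in the first.

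The lowest adjusted p in Y665F against WT was that of Ms4a6c, a membrane protein of monocytes, with 1 and 11 UMIs in WT, 1 and 0 in Y665H, and 29 and 14 in Y665F (edgeR adjusted p = 0.0625). Ms4a6c reached the expression filter only through WT (640 and 702 CPM, against at most 52.3 in the other libraries), so its direction was set by the filter. The 11 UMIs of WT replicate 2 came from 1 cell. Ifitm1, an interferon-inducible membrane protein also found on progenitors, had the lowest unadjusted p in Y665F against Y665H. It had 0 and 2 UMIs in WT, 1 and 0 in Y665H, and 519 and 197 in Y665F (edgeR adjusted p = 0.209, a value other genes shared). Ifitm1 reached the filter only through Y665F (817 and 639 CPM, against at most 128 in the other libraries), which set its direction. Ifitm1 was also higher outside the gate, at 186 and 248 CPM in WT, 172 and 395 in Y665H, and 1575 and 918 in Y665F. The difference between the gate and the rest of the marrow was also fitted, with the library as a term, over 12299 genes, although only 274 outside the rule passed the filter on the gated counts alone. For Y665F and for Y665H 0 were called by edgeR (0% of the genes tested, with 423 and 105 at an unadjusted p under 0.05) and 0 by DESeq2, and for Y665F 119 at a gate of 10% of UMIs and 91 at 20%. With so few gated UMIs in WT these counts do not show whether genes moved alike inside and outside the gate.

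Levels of the 7 testable secondary granule genes were also read per 1000 gate-gene UMIs, a base that the rule itself used, so that they are a description. Pglyrp1 stood at 6.58 and 11.2 in WT, 12.5 and 7.72 in Y665H, and 17.7 and 13.4 in Y665F, above the other libraries. Hp gave 3.29 and 10.5, 9.31 and 6.38, and 3.85 and 1.83, with Y665F replicate 1 inside the range of the others and replicate 2 below it. Lyz2, the lysozyme of myeloid cells, gave 13.1 in WT replicate 2, 10.1 and 9.07 in Y665H, and 12.4 and 11.4 in Y665F. Ifitm6 gave 7.85 in WT replicate 2, 6.90 and 6.72 in Y665H, and 8.68 and 6.19 in Y665F, and neither gene had a UMI in the 2 gated cells of WT replicate 1. The Y665F values of Wfdc21 (16.1 and 17.5) and Anxa1 (5.86 and 5.25) lay within the range of the others, and those of Chil3 were 8.17 and 6.07 beside 3.02 to 6.58.

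Transcripts of the neutrophil lineage were then compared over all kept cells of each library, which needs no gate. This comparison was added after the data were seen. In bulk sums of this kind, fewer cells of a type and less RNA per cell cannot be told apart. Of 13917 genes tested, 8.06% rose and 8.67% fell in Y665F against WT, 13.5% rose and 12.1% fell in Y665F against Y665H, and 0% rose or fell in Y665H against WT (721 at an unadjusted p under 0.05, 0 called by DESeq2 and 18 with the replicate number as a term). The Y665F libraries are shared by the first 2 of these comparisons.

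Of 13 secondary granule genes outside the rule, 7 passed the expression filter in the WT and Y665H libraries alone, and 5 of these rose and 0 fell in Y665F, both against WT and against Y665H. Of all genes that passed the filter in this way, 7.04% rose against WT and 11.7% against Y665H. The median log2 fold change of the 7 was 2.13 and 1.82, beside -0.003 and 0.02 over all such genes. The other 6 (Fcnb, Cd177, Itgb2l, Olfm4, Orm1 and Ly6g) passed only through the Y665F libraries, so their direction was set by the filter, and they are given by their values. Wfdc21, a small secreted protein of neutrophil granules, stood at 1.74 and 2.57 CPM in WT, 4.68 and 4.52 in Y665H, and 55.7 and 26.9 in Y665F. Its log2 fold change was 4.04 ± 0.37 SE against WT (edgeR adjusted p = 1.6e-05) and 2.75 ± 0.34 SE against Y665H (adjusted p = 5.57e-05).

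Chil3, a chitinase-like protein, stood at 0.992 and 0.471 CPM in WT, 1.14 and 0.810 in Y665H, and 30.2 and 9.43 in Y665F, with log2 fold changes of 4.68 against WT (edgeR adjusted p = 7.62e-05) and 3.90 against Y665H. Ly6g was at 0.124 and 0.362 CPM in WT, 0.146 and 0.0772 in Y665H, and 3.67 and 1.58 in Y665F. Both Y665F libraries lay above the other 4 for Wfdc21 and Chil3. Pglyrp1, which binds bacterial peptidoglycan, rose by 2.13 and Lyz2 by 1.46 on the log2 scale against WT. Olfm4, a glycoprotein of specific granules, was at 0 in both Y665H libraries and at 0.864 and 0.324 CPM in Y665F.

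The 2 secondary granule genes that were not called against WT were Hp (haptoglobin) and Anxa1 (annexin A1). Hp stood at 24.2 and 29.5 CPM in WT, 44.3 and 34.8 in Y665H, and 37.2 and 19.95 in Y665F, with overlapping groups. Inside the gate Hp had a UMI in 83.4% of Y665F replicate 1 cells and 43.7% of Y665F replicate 2 cells, against 85.7% in WT replicate 2 and 78.6% and 87.5% in Y665H. It was also seen in 4.08% to 8.45% of cells outside the gate.

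**Figure D5:**
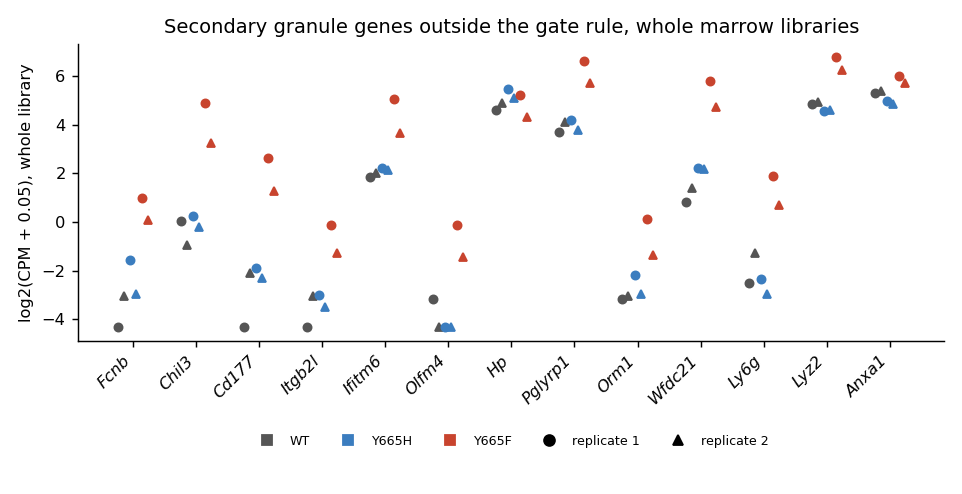
Level of 13 secondary granule genes over all kept cells, as log2(CPM + 0.05), 1 point per library with circles for replicate 1 and triangles for replicate 2. Fcnb, Cd177, Itgb2l, Olfm4, Orm1 and Ly6g passed the expression filter only through Y665F, which set their direction, and the points of Hp overlap between genotypes.

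Late neutrophil genes rose in part. Of 18, 13 passed the filter in the WT and Y665H libraries alone. Of these, 5 rose and 0 fell against WT and as many against Y665H. Of all genes that passed in this way, 7.04% rose against WT and 11.7% against Y665H. The median log2 fold change of the 13 was 0.62 and 0.54, beside -0.003 and 0.02 over all such genes. Mmp9, Mmp25, Fpr2 and Stfa2l1 passed only through Y665F, and 1 gene was not tested. Mmp9 stood at 0 and 0.290 CPM in WT, 0.0974 and 0.154 in Y665H, and 6.89 and 2.93 in Y665F. Retnlg, a resistin-like secreted protein, stood at 0.496 and 8.19 CPM in WT, 3.31 and 1.85 in Y665H, and 103 and 60.6 in Y665F (edgeR adjusted p = 0.000831). Slpi, a protease inhibitor which the rest of the marrow also expressed, was not called, with a log2 fold change of 0.27 against WT. Of the 5 called against WT, Mmp8, Il1b and Csf3r each lost the call without at least 1 library. The log2 fold change of Csf3r was 0.96 without WT replicate 2 and 0.9997 without Y665F replicate 1. The call of Mmp8 against WT was lost without Y665F replicate 1 (edgeR adjusted p = 0.0548) and that of Il1b without Y665F replicate 2 (0.128). Against Y665H the calls of Cxcr2 (edgeR adjusted p = 0.0654) and Il1b (0.100345) were lost without Y665H replicate 1, and that of Il1b also without Y665H replicate 2 (0.0634) or Y665F replicate 2 (0.107).

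Primary granule genes did not rise as a group, with 1 of 8 up (Cd63) and 1 down (Cst7) against WT, and 0 up and 1 down against Y665H. Over all genes tested, 8.06% rose and 8.67% fell against WT, and 13.5% rose and 12.1% fell against Y665H. Both calls against WT rested on single libraries, with a log2 fold change of 0.61 for Cd63 without WT replicate 1 and -0.37 for Cst7 without WT replicate 2. Mpo, the myeloperoxidase, stood at 436 and 270 CPM in WT, 322 and 255 in Y665H, and 514 and 618 in Y665F (log2 fold change 0.54 ± 0.25 SE against WT, edgeR adjusted p = 0.115). Elane, the neutrophil elastase, stood at 528 and 723 CPM in WT, 998 and 724 in Y665H, and 851 and 687 in Y665F, with overlapping groups. Both were also seen outside the gate, Mpo in 23.6% to 62.6% of those cells. In gated Y665F cells Elane stood at 1940 and 684 CPM.

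Of the NADPH oxidase, which makes the oxidative burst, Cybb rose and Rac2 fell among 6 members against WT. Over all genes tested, 8.06% rose and 8.67% fell, so these counts are not read as a change of the list. Cybb, the catalytic subunit, stood at 2.73 and 2.61 CPM in WT, 2.70 and 2.32 in Y665H, and 12.7 and 11.5 in Y665F (log2 fold change 2.00 ± 0.26 SE, edgeR adjusted p = 0.000203). In gated cells Cybb had a UMI in 64.8% and 68.3% in Y665F, against 1.29% and 1.93% of the other cells of those libraries. Rac2 lost its call without WT replicate 2 (log2 fold change -0.80) and without Y665F replicate 2 (-0.88), beside -1.03 with all libraries.

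Among 12 granulocyte transcription factors, 4 rose and 0 fell against WT (Cebpa, Cebpe, Gfi1 and Runx1), and 3 rose against Y665H. Over all genes tested, 8.06% rose against WT and 13.5% against Y665H. The 3 of 12 against Y665H are therefore not read as a rise of the list. Cebpe, which directs secondary granule genes, stood at 1.80 and 1.99 CPM in WT, 2.48 and 2.78 in Y665H, and 6.25 and 3.91 in Y665F (log2 fold change 1.23 ± 0.33 SE against WT, edgeR adjusted p = 0.0111), and was not called against Y665H (0.53, adjusted p = 0.174). Its call was lost without Y665F replicate 1 (log2 fold change 0.78, edgeR adjusted p = 0.166) and without WT replicate 1 (1.02, adjusted p = 0.0614), and that of Runx1 without WT replicate 2 (0.98, below the fold threshold). The call of Gfi1 against Y665H was lost without Y665H replicate 1 (edgeR adjusted p = 0.0603). Gfi1, a repressor needed for granulocyte development, had only 6 and 3 UMIs in the gated Y665F cells. Its library-wide level of 7.47 and 9.25 CPM in Y665F, against 2.36 and 3.04 in WT, therefore came mostly from cells outside the gate. The gate held only 1.14% and 0.624% of the kept UMIs of the Y665F libraries.

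The list of receptors and STAT5 genes was not confined to the gate. Its summed level was 698 and 668 CPM in gated Y665F cells and 672 and 732 CPM in the other cells of those libraries. In the receptor list, Csf3r, Csf2rb and Csf2rb2 were among the genes that rose against WT, and Epor, the erythropoietin receptor, fell. Csf3r, the receptor of granulocyte colony-stimulating factor, stood at 11.4 and 6.85 CPM in WT, 5.97 and 7.95 in Y665H, and 23.6 and 20.9 in Y665F (edgeR adjusted p = 0.00345 against WT), with 0 and 0, 1 and 0, and 50 and 13 UMIs in gated cells. Its log2 fold change against WT was just under the fold threshold without WT replicate 2 (0.96) and without Y665F replicate 1 (0.9997), and the call of Csf2rb2 was lost without Y665F replicate 1 (edgeR adjusted p = 0.0759) and without WT replicate 2 (0.0515). Stat5b stood at 25.8 and 19.3 CPM in WT, 16.6 and 16.8 in Y665H, and 39.5 and 49.3 in Y665F, a log2 fold change of 0.82 ± 0.20 SE against WT (edgeR adjusted p = 0.00751) that did not reach the fold threshold. Its paralog Stat5a had a log2 fold change of 0.47 (adjusted p = 0.0783).

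In gated cells Stat5b had 0 and 0 UMIs in WT, 3 and 0 in Y665H, and 15 and 12 in Y665F, and Stat5a 0 and 0, 0 and 1, and 8 and 1. Differences in either gene inside the gate were not detectable at this depth. Of 15 tested STAT5 feedback, survival and cyclin targets, 9 rose and 1 fell over all kept cells against WT. Over all genes tested, 8.06% rose and 8.67% fell. Among the targets that rose was Socs2, a feedback inhibitor of cytokine signalling. It stood at 4.96 and 4.35 CPM in WT, 2.31 and 2.20 in Y665H, and 101.3 and 87.0 in Y665F. The call of Bcl2l1 was lost without WT replicate 1 (log2 fold change 0.86) and without Y665F replicate 2 (0.83, edgeR adjusted p = 0.0895), and that of Mcl1 without Y665F replicate 2 (0.87). Inside the gate Socs2 had a UMI in 8.54% and 13.5% of Y665F cells, against 22.6% and 19.1% of the other cells of those libraries.

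Lists of other cell types were read in the same comparison. Over all kept cells, 4 of 7 stem and progenitor genes rose and 8 of 9 erythroid genes fell in Y665F against WT. Over all genes tested, 8.06% rose and 8.67% fell, and 7.04% rose of those that passed the filter without Y665F. Counts as small as 1 of 6 below do not set a list apart from these shares. Of other lists, 3 of 6 basophil and mast cell genes and 2 of the 4 megakaryocyte genes that passed the filter without Y665F rose, while 3 of 3 tested plasmacytoid dendritic cell genes, 2 of 5 T and NK cell genes and 1 of 6 B lineage genes fell. Among these, the calls of Mcpt8 and Siglech were lost without WT replicate 1 (edgeR adjusted p = 0.156 and 0.203), and those of Prss34, Ccr9, Cox6a2, Cd3g and Cd79b without WT replicate 2 (0.243, 0.915, 0.286, 0.0532 and 0.115). Without Y665F replicate 1 the calls of Mcpt8, Prss34 and Siglech were lost, without Y665F replicate 2 those of Cd79b, Cd3g and Siglech, and without Y665H replicate 1 that of Siglech. The eosinophil list had 3 genes tested, of which Prg3 and Epx passed the filter only through Y665F and Prg2 rose (log2 fold change 6.80). Of 8 monocyte genes 0 rose and 1 fell, with a median log2 fold change of 0.09. A fall of the abundant erythroid transcripts is part of the same library totals on which every CPM rests, and its part in the other values was not tested.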

How the data were processed

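The methods describe BM cells taken from tibiae and femurs for counts and flow cytometry. For the single-cell libraries they name only cell suspensions, run on the 10x Genomics Chromium Controller, without saying whether these were sorted or depleted. The authors deposited raw UMI counts per gene and barcode for each library, made with Cell Ranger, the file headers giving version 6.0.0 for BM and spleen, and the methods naming the GRCm38 genome. The labels name a 3′ kit and the methods a 5′ kit, so levels were compared only within a tissue. All deposited count columns were mapped to samples, and groups were read from the sample titles.

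From these counts the filters and gate of the report were applied, and UMIs were summed per library. The members and gene lists were chosen with earlier results of these data known. Genes were named as members of the lists, or for the lowest p where no gene was called (chosen after their values were seen). Sex-linked genes were not named among calls. Fits used edgeR 4.0.16 (limma 3.58.1, R 4.3.3), TMM, filterByExpr and all 6 libraries in 1 model, with the 6 gate genes in the fit and out of every count. Calls follow the thresholds stated in the report. Scripts were tested on simulated data. Doublets were scored with scrublet in scanpy 1.11.5 and kept in the main values, with the top 0.8% per 1000 barcodes left out as an alternative. DESeq2 1.42.0, RLE scaling, other gates, filters, depth floors, a replicate block and leaving out single libraries were the other alternatives. Other tools were Python 3.11.15, numpy 2.4.6, scipy 1.17.1 and pandas 2.3.3. The methods state that mice were male, while sex-linked transcripts show replicate 1 of each BM genotype as female and replicate 2 as male. Sequences came from the study's oligonucleotide table and GRCm38. The protein stretch around residue 665 is not shown here. Some members of the gene lists are not reported here.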

Additional observations from a re-analysis of the deposited data

Results flagged for a closer look

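Applied to the spleen, of which the marrow report uses only the makeup of the gate genes, the same gate held more cells in both mutants than in WT. It held 81 of 6866 kept cells (1.18%, exact 95% interval 0.938% to 1.46%) in WT, 538 of 8018 (6.71%, 6.17% to 7.28%) in Y665H and 269 of 5028 (5.35%, 4.74% to 6.01%) in Y665F. These 2 mutant values were singled out because they lie above the WT library in data outside the main measurement. Each genotype has 1 spleen library, so the differences have no replicate check. By flow cytometry of spleens from several mice per genotype, the study reports that neutrophil numbers did not differ significantly from WT in either mutant. In marrow, by contrast, the Y665H share (0.100%) lay within reach of WT (0.0545%). The median depth of gated spleen cells was 2950 UMIs in WT, 3420 in Y665H and 10349 in Y665F. The part of depth in these shares was not tested.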

How the results depend on the processing

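No alternative brought any of the 3 shares past the threshold, but many could not have, since the smallest possible p was 0.0667 or more without any 1 library, 0.133 or more throughout for primary granule cells, and 0.0667 or more for late cells at gates of 20% and 30%, at 500 genes, with the UMI floor and after thinning. Where the exact permutation test allowed a p of 0.0222, that p alone would not have passed after adjustment over the 3 shares. Leaving out single libraries moved the difference between Y665F and WT between 0.619 and 1.03 percentage points for the gate share, 1.59 and 3.52 for primary granule cells, and 7.10 and 35.7 for late cells (7.10 without WT replicate 1). Counts of called genes inside the gate, 0 in the report, changed as follows. In Y665F against WT, the replicate block called 2 (Gm43305 and Ms4a6c) and leaving out libraries 0 to 2. In Y665H against WT leaving out libraries called 0 to 1. In Y665F against Y665H, DESeq2 called 1 (Stfa1), no filter beyond a total count of 10 called 4 (Prg2, Arpc1a, Ifitm1 and Stfa1), the replicate block 4 (Rps9, Ifitm1, Ndufb1-ps and Stfa1) and leaving out libraries 0 to 5, with 5 without WT replicate 2. The difference between the gate and the rest for Y665F gave 119 genes at a gate of 10% of UMIs and 91 at 20%, and 0 to 1 without single libraries, while that for Y665H stayed at 0. Over all kept cells, Y665F against WT gave 1505 (without Y665F replicate 2) to 2724 genes, beside 2328. Y665F against Y665H gave 2196 (without Y665H replicate 1) to 3752, beside 3557, and Y665H against WT 2 to 28 and 18 with the replicate block, beside 0. The Ngp difference ranged from -30.1 to -22.3 percentage points without single libraries and was -17.6 without monocyte-gene cells. The cause was not tested.

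The calls of the 5 secondary granule genes that passed the filter without Y665F held without each single library, with the block and in DESeq2, against WT and against Y665H. Among the transcription factors, Cebpe reached an adjusted p of 0.166 without Y665F replicate 1. Correlations of the deviations of same-numbered libraries were 0.03, -0.05 and 0.67 in gated cells and 0.25, -0.05 and 0.21 over all kept cells, so not every pair deviated together. The number goes with sex in each genotype, but nothing states a shared litter, batch or day, so the libraries were not taken as paired and the block is given only as an alternative. Gated cells in WT and Y665H number 31, which limits what the gated comparisons can detect.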

Other observations

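Gated cells with a UMI of Mki67, a marker of dividing cells, made up 22.1% and 27.0% in Y665F, 21.4% and 0% in Y665H and 0% in both WT libraries, against 15.5% to 38.8% of other kept cells. Of the adhesion genes, Itgam, the alpha chain of the CD11b/CD18 integrin, had a UMI in 56.3% and 20.6% of gated Y665F cells and in 0.495% to 2.40% of the cells outside the gate. The gate genes themselves took 0.00378% and 0.0137% of all kept UMIs in WT, 0.0196% and 0.0140% in Y665H, and 0.339% and 0.143% in Y665F, of which 93.0% and 65.9% lay inside the gate in the Y665F libraries.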
